A study of Homo sapiens with 21 samples.

Results

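Cells treated with UNC0642 were compared directly with cells treated with TP-472: all 3 UNC0642 libraries against all 3 TP-472 libraries, chosen by their labels, 6 of the 21 libraries of the series. All libraries hold poly-A selected RNA of the human melanoma line SK-MEL-147, grown in DMEM with 10% FBS. The other 15 libraries are 3 of untreated cells and 3 each with GSK-591, GSK-484, MS023 and JQ-1. Untreated cells and a set of 3 other compounds (GSK-591, GSK-484 and MS023, 9 libraries) show here on which side a difference lies. The sources used here state no dose, time or vehicle. The labels call the 3 libraries of a group biological replicates, without saying whether they came from different cultures; p-values then reflect the spread among these libraries alone, and that spread may be technical.

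UNC0642 inhibits EHMT1 and EHMT2 (GLP and G9a), a pair of methyltransferases that act together and place mono- and dimethyl groups on lysine 9 of histone H3, a mark of silenced chromatin. TP-472 occupies the bromodomains, readers of acetylated lysine, of both BRD9 and BRD7; BRD9 belongs to the non-canonical form of the SWI/SNF remodelling complex and BRD7 to the polybromo form. The direct contrast asks how RNA levels differ when a writer of a repressive mark is inhibited and when a reader of acetylation is inhibited. Matrix genes matter in melanoma because the cells build and cut their own collagen, laminin and fibronectin. Replication genes are largely driven by E2F factors and reach their highest levels around the G1/S transition. Many inflammatory genes are NF-kB targets.

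The 2 treatments differed by small steps in many genes. Expression is given as CPM, counts scaled to a common library size (totals adjusted by TMM), and differences as log2 of UNC0642 over TP-472, so that positive values are higher with UNC0642. Of 15062 genes tested with the edgeR quasi-likelihood test, 3290 were called at a Benjamini-Hochberg adjusted p under 0.05 (21.8%). Of these, 1775 were higher with UNC0642 (11.8% of genes tested) and 1515 were higher with TP-472 (10.1%). The median called gene differed by 1.17-fold, 250 differed at least 1.5-fold, and 91 differed at least 2-fold, 77 of those higher with UNC0642. Leaving out 1 library lowered the count of calls to 1322 without UNC0642 replicate 2, 1825 without UNC0642 replicate 3, 1573 without TP-472 replicate 3 and 2015 without TP-472 replicate 2. In that order, 902, 1188, 1068 and 1274 of them were higher with UNC0642 and 420, 637, 505 and 741 with TP-472. Without UNC0642 replicate 1 these counts were 1947 and 1308, and without TP-472 replicate 1 they were 1702 and 1243. Counts of list members in such fits stand against these. In the fits that leave out each of the 6 libraries in turn, 1134 genes were called in every one. The UNC0642 and TP-472 libraries did not overlap in 97.7% of the called genes, so a lack of overlap adds little to a call. With total-count scaling, 39.3% of the called genes were higher with UNC0642 in place of 54.0%.

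Long transcripts were relatively higher in the UNC0642 libraries, and this touches every result below. Within the octile of shortest transcripts (up to 1679 bases) the median log2 difference was -0.13, and within the octile of longest (from 7015 bases) it was 0.19. Of the longest octile, 46.4% of genes were called higher with UNC0642, and of the shortest 1.30%. The slope of log2 CPM on transcript length, per doubling, was 0.022, 0.071 and 0.054 in the UNC0642 libraries and -0.011, -0.034 and -0.051 in the TP-472 libraries, which do not overlap. It varied as widely within the untreated group, at 0.085, 0.030 and -0.0033. Except for single genes against untreated cells, each comparison is therefore given also with each library's GC and length trend removed, written as "trends removed". Then 1270 genes were called higher with UNC0642 (8.43%) and 1128 higher with TP-472 (7.49%), and 1676 genes were called in the same direction in both fits. Counts of called list members below stand against these shares, or against 11.8% and 10.1% with no trend removed. The part of the length trend in the results was not tested beyond this removal.

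**Figure D1:**
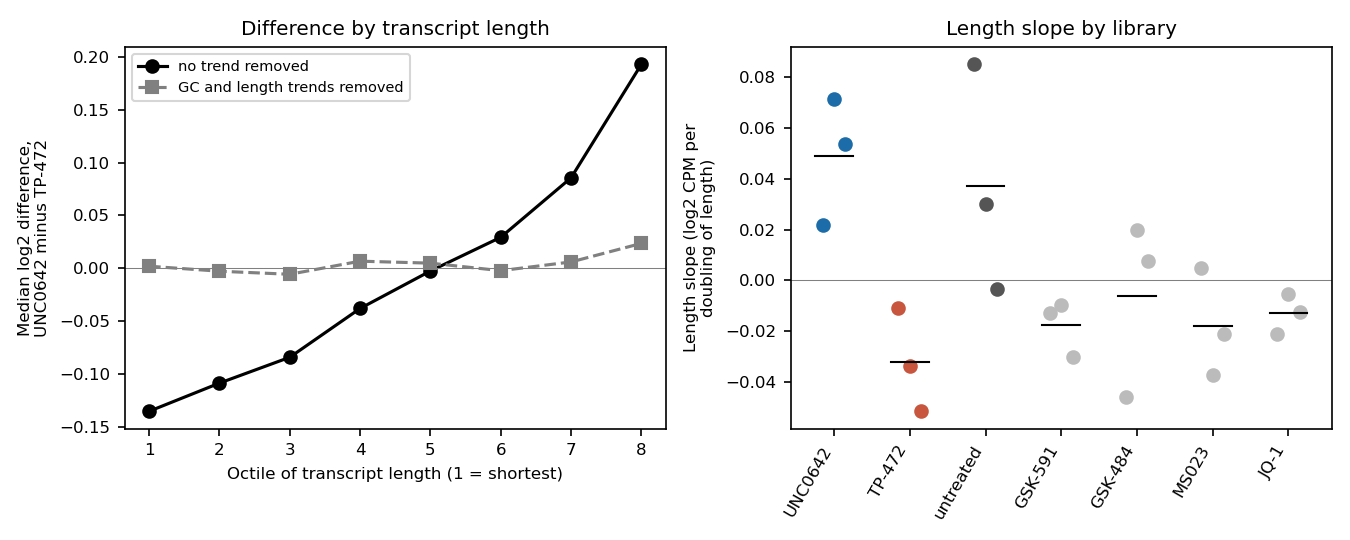
Left, the median log2 difference (UNC0642 minus TP-472) of the genes in each octile of transcript length, with no trend removed (circles) and with the GC and length trends of each library removed (squares). Right, the slope of log2 CPM on length in each library (points, with group means as bars): the 3 UNC0642 libraries lie above 0 and the 3 TP-472 libraries below it, while the untreated libraries spread from -0.0033 to 0.085.

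Among the transcripts of the proteins that the compounds bind, BRD9 was called. BRD9 had 127, 125 and 125 CPM with UNC0642 and 134, 134 and 136 CPM with TP-472, a log2 difference of -0.11 ± 0.030 (SE) (adjusted p = 0.0153; -0.13 and 0.00173 with trends removed). The 3 TP-472 libraries are all above the 3 UNC0642 libraries, although the call ended without replicate 2 or 3 of either group (adjusted p up to 0.0943). EHMT1 had 72.6, 77.5 and 82.4 CPM with UNC0642 and 76.8, 77.3 and 74.1 CPM with TP-472; the groups overlap (log2 difference 0.028 ± 0.049 (SE), adjusted p = 0.72), and with trends removed the difference became -0.12 (adjusted p = 0.0379). That call ended with a replicate block (adjusted p = 0.0519) and without any single library but UNC0642 replicate 3 (adjusted p up to 0.186). EHMT2 had 82.9, 89.1 and 86.1 CPM with UNC0642 and 88.1, 91.3 and 82.1 CPM with TP-472 and also overlaps (-0.018 ± 0.050 (SE), adjusted p = 0.833). For BRD7 the levels were 130.0, 129.9 and 129.6 CPM with UNC0642 and 129.8, 129.5 and 135 CPM with TP-472 (-0.018 ± 0.036 (SE), adjusted p = 0.77). RNA levels of the targets do not measure their inhibition.

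Among the genes named on the UNC0642 side, EHF, IGFN1 and FCRLA differed by over 1 on the log2 scale. EHF, an ETS transcription factor of epithelial cells (chr11:34621093-34661057, GENCODE 29, GRCh38), had 43.8, 46.3 and 42.5 CPM with UNC0642 and 20.8, 19.8 and 20.8 CPM with TP-472, with 33.5, 29.6 and 32.02 CPM in untreated cells. Every UNC0642 library is above every untreated library and every TP-472 library below them. The log2 difference was 1.11 ± 0.069 (SE), which is 2.17-fold (adjusted p = 6.19e-10; 1.15 with trends removed). IGFN1, which encodes a protein of immunoglobulin-like and fibronectin type III domains (chr1:201190825-201228952), had 25.4, 31.4 and 29.1 CPM with UNC0642 and 8.42, 9.01 and 8.26 CPM with TP-472, and 17.4, 15.6 and 12.8 CPM in untreated cells. Its 3 groups do not overlap either, and it had one of the largest differences, 1.75 ± 0.10 (SE) (adjusted p = 2.21e-10; 1.52 with trends removed). FCRLA, a relative of the Fc receptors, had 6.71, 6.52 and 6.97 CPM with UNC0642 and 2.53, 2.78 and 2.72 CPM with TP-472, with untreated cells between them at 3.47, 4.44 and 4.07 CPM (log2 difference 1.33 ± 0.13 (SE), adjusted p = 9.77e-07; 1.38 with trends removed).

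Other genes with a small p differed by smaller steps. ANGPTL2, a secreted angiopoietin-like protein, had 101, 106 and 106 CPM with UNC0642 and 67.8, 67.6 and 66.8 CPM with TP-472 (0.63 ± 0.042 (SE), adjusted p = 2.06e-09), and untreated cells held 78.5, 78.5 and 78.9 CPM, between the 2 groups. SERPINB7, a serine protease inhibitor, had 52.9, 50.5 and 51.9 CPM with UNC0642 and 37.4, 35.4 and 35.9 CPM with TP-472 (0.51 ± 0.054 (SE), adjusted p = 3.6e-06); here the untreated libraries, at 45.4, 43.5 and 51.6 CPM, reach into the UNC0642 range. AOX1, an aldehyde oxidase, had 73.4, 73.3 and 73.9 CPM with UNC0642 and 54.1, 52.8 and 52.1 CPM with TP-472 (0.47 ± 0.040 (SE), adjusted p = 1.73e-07). LCP1, the actin-bundling plastin of blood cells that many tumour lines also express, had 74.8, 78.97 and 77.6 CPM with UNC0642 and 60.8, 59.2 and 59.9 CPM with TP-472 (0.36 ± 0.038 (SE), adjusted p = 3.6e-06). With trends removed these 4 differences were 0.66, 0.59, 0.42 and 0.36. SFRP1, a secreted antagonist of Wnt ligands, is an example of a small called step, with 579, 596 and 595 CPM with UNC0642 and 501, 501 and 494 CPM with TP-472, a log2 difference of 0.24 ± 0.026 (SE) (adjusted p = 5.06e-06; 0.23 with trends removed). CCDC80, which encodes a secreted matrix protein from a long transcript, differed by 0.36 ± 0.035 (SE) (adjusted p = 9.77e-07), but by 0.13 with trends removed (adjusted p = 0.0765).

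**Figure D2:**
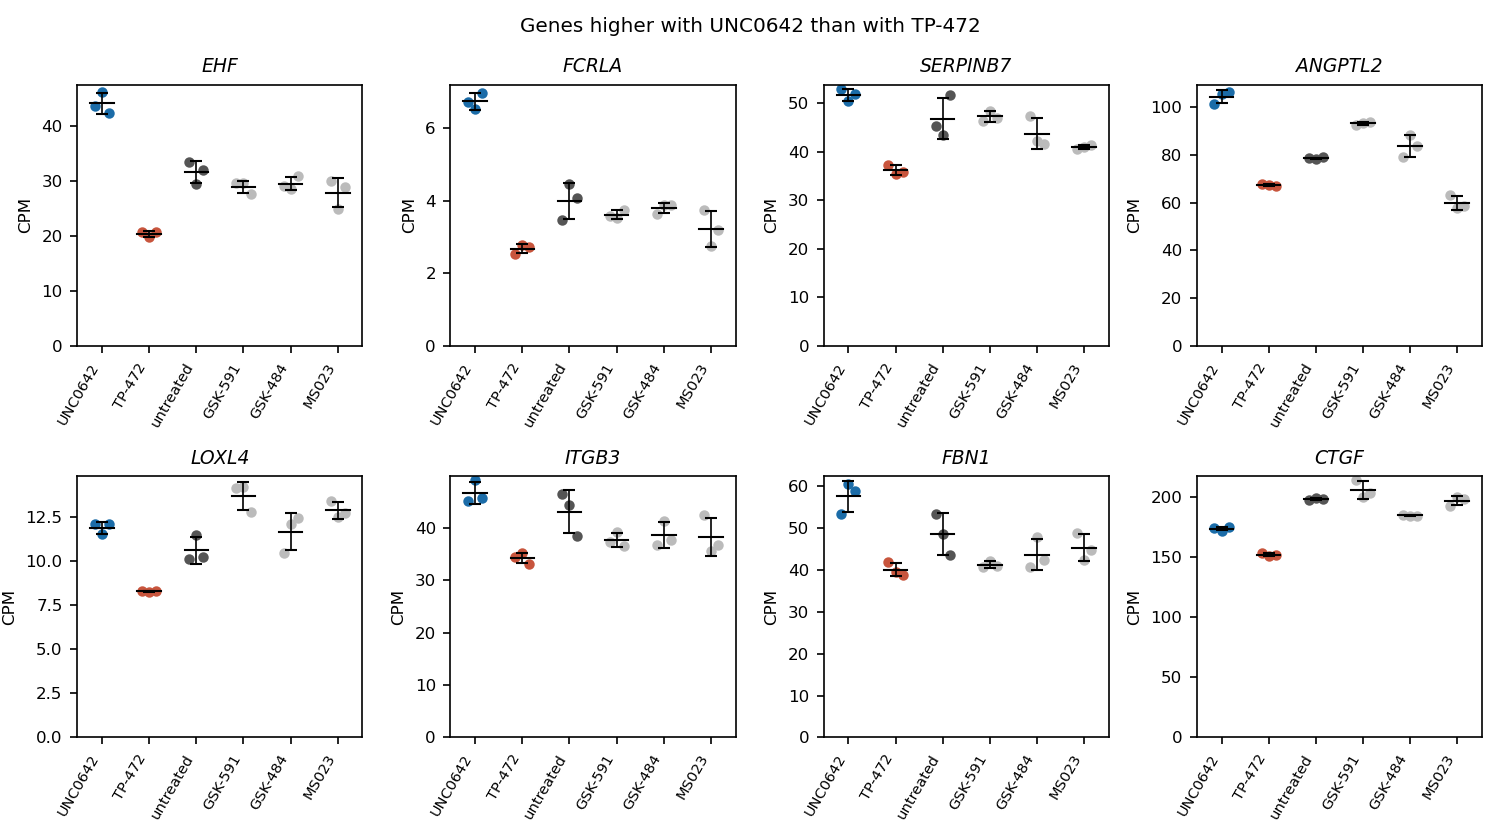
CPM of 8 genes higher with UNC0642 in each library (points), with the group mean and SD (bars, n = 3), for UNC0642, TP-472, untreated cells and the 3 other compounds; JQ-1 is not drawn. In EHF and FCRLA the untreated libraries lie between the 2 compounds, and in CTGF both compounds lie below them.

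Some of the largest differences belonged to genes whose level also varied among libraries of other groups. ZBED6, a transcription factor encoded within an intron of ZC3H11A, had 32.6, 55.1 and 53.3 CPM with UNC0642 and 17.3, 16.3 and 16.3 CPM with TP-472 (1.51 ± 0.27 (SE), adjusted p = 0.000804; 1.28 with trends removed), but untreated cells alone ran over 47.3, 32.4 and 17.9 CPM. KIAA0754 behaved alike, with 18.7, 31.9 and 27.6 CPM with UNC0642 and 7.48, 8.39 and 7.23 CPM with TP-472 and 22.1, 14.8 and 7.68 CPM in untreated cells (1.77 ± 0.30 (SE), adjusted p = 0.000461; it has no length in the annotation used). LNPEP, a membrane aminopeptidase, had 8.29, 12.96 and 11.7 CPM with UNC0642 and 5.66, 3.999 and 4.41 CPM with TP-472 (1.25 ± 0.21 (SE), adjusted p = 0.000514; 1.02 with trends removed) and 10.8, 7.27 and 5.26 CPM in untreated cells. In all 3 genes the untreated libraries spread over most of the distance between the compounds. MALAT1, a nuclear long non-coding RNA, went the other way with 779, 595 and 594 CPM with UNC0642 and 1151, 1149 and 1236 CPM with TP-472 (-0.85 ± 0.15 (SE), adjusted p = 0.000872; -1.01 with trends removed), and untreated cells spread over 853, 949 and 1303 CPM. Of the genes that differed at least 2-fold, 25.3% had fractional counts in most libraries, against 19.5% of all genes tested: reads shared with near-identical or overlapping genes were split there, and UBE2F-SCLY (-2.98), KIAA0408 (-2.13), IPO11-LRRC70 (-1.83) and TIAF1 (-1.49), the largest on the TP-472 side, are uncertain for that reason; UBE2F-SCLY was not called with trends removed (adjusted p = 0.0533).

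Genes of matrix proteins that passed the test were higher with UNC0642, with 1 exception. Of 49 matrix proteins tested (55 listed), 23 were called higher with UNC0642 and 1 higher with TP-472, and 25 did not pass the test, with a median log2 difference of 0.18 against -0.017 over all genes. With trends removed 15 were called higher with UNC0642 and 0 higher with TP-472, and the median was 0.104 against 0.0024. Matrix transcripts are long (median 5864 bases, against 3575 for all genes), so the trend bears on this list more than on most. FBN1, fibrillin-1 of elastic microfibrils (chr15:48408306-48645849), had 53.4, 60.5 and 58.9 CPM with UNC0642 and 41.9, 39.6 and 38.8 CPM with TP-472 (0.53 ± 0.068 (SE), adjusted p = 4.23e-05; 0.304 with trends removed). No UNC0642 library is as low as a TP-472 library, but untreated cells, at 53.5, 48.7 and 43.6 CPM, overlap the UNC0642 range. COL12A1, a collagen on the surface of fibrils, had 231, 279 and 267 CPM with UNC0642 and 191, 189.6 and 180.3 CPM with TP-472 (0.47 ± 0.080 (SE), adjusted p = 0.000517; 0.25 with trends removed). Its level in untreated cells spread over 262, 232 and 195 CPM. COL7A1, the collagen of anchoring fibrils, had 461, 486 and 498 CPM with UNC0642 and 382, 376 and 369.7 CPM with TP-472 (0.36 ± 0.058 (SE), adjusted p = 0.000351; 0.19 with trends removed). The longest transcripts of these 3 genes have 11756 (FBN1), 11723 (COL12A1) and 9276 (COL7A1) bases, and each gene lost part of its difference with the trends.

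CTGF (now named CCN2), a matricellular target of TGF-beta and YAP with a short transcript, gained with the trends removed. It had 174, 172 and 175 CPM with UNC0642 and 153, 150.3 and 152 CPM with TP-472 (0.19 ± 0.031 (SE), adjusted p = 0.000333; 0.28 with trends removed). Its libraries differ by only a few CPM within a group, and untreated cells lie above both compounds at 197, 199 and 198 CPM. MFGE8, a secreted adhesion protein, was the only matrix protein called higher with TP-472, at 104, 102 and 104 CPM with UNC0642 and 110.2, 117 and 113 CPM with TP-472 (-0.14 ± 0.046 (SE), adjusted p = 0.037), and it was not called with trends removed (adjusted p = 0.338) or without any single library but TP-472 replicate 1 (adjusted p up to 0.179). Summed over the 55 matrix genes, the libraries held 15320 to 16220 CPM with UNC0642, 14120 to 14450 with TP-472 and 13980 to 14790 untreated. Fibroblast markers, 10 genes of which 6 were tested and some are matrix genes too, summed to 16.4 to 17.5 CPM with UNC0642, 14.4 to 15.7 CPM with TP-472 and 14.4 to 15.6 CPM untreated, so the compounds do not overlap there. Of these markers DCN had 0 counts in all 6 libraries, COL1A2 and COL3A1 were close to 0, and PDGFRB alone was called; their part in the matrix result was not tested.

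Enzymes that cross-link or cut the matrix were called on both sides. Of 43 tested, 14 were called higher with UNC0642 and 3 higher with TP-472 (17 and 2 with trends removed), with a median of 0.078. That is 32.6% and 6.98% of those tested, against 11.8% and 10.1% of all genes. Those on the UNC0642 side include lysyl oxidases, which cross-link collagen and elastin. LOXL4 had 12.1, 11.5 and 12.1 CPM with UNC0642 and 8.29, 8.25 and 8.26 CPM with TP-472 (0.52 ± 0.072 (SE), adjusted p = 9.74e-05; 0.56 with trends removed); its 3 TP-472 libraries are nearly equal. LOX had 110.2, 112 and 113.7 CPM with UNC0642 and 96.98, 90.03 and 92.4 CPM with TP-472 (0.27 ± 0.043 (SE), adjusted p = 0.000352; 0.21 with trends removed). Untreated cells lay above both compounds for LOX, at 123.6, 114.4 and 120.2 CPM. LOXL3, whose fractional counts make it uncertain, differed by 0.33 ± 0.035 (SE) (adjusted p = 3.9e-06). ADAM12, a membrane metalloprotease, had 107, 118 and 114 CPM with UNC0642 and 90.4, 87.9 and 83.5 CPM with TP-472 (0.37 ± 0.067 (SE), adjusted p = 0.000782; 0.22 with trends removed). The 3 called higher with TP-472 were the protease urokinase (PLAU), its receptor (PLAUR) and heparanase (HPSE), which cuts heparan sulfate. PLAU, at a low level and with fractional counts in most libraries, had 3.96, 3.61 and 3.33 CPM with UNC0642 and 5.58, 5.88 and 5.68 CPM with TP-472 (-0.66 ± 0.10 (SE), adjusted p = 0.00021; -0.58 with trends removed), and untreated cells were at 2.91, 3.26 and 3.27 CPM, near the UNC0642 level. PLAUR differed by -0.17 ± 0.048 (SE) (adjusted p = 0.0177) but by -0.037 with trends removed (adjusted p = 0.458), and HPSE by -0.26 ± 0.085 (SE) (adjusted p = 0.0335; -0.29 with trends removed). PLAUR was not called without UNC0642 replicate 2 or TP-472 replicate 2 or 3 (adjusted p up to 0.111), and HPSE kept its call only without TP-472 replicate 2 (otherwise up to 0.133).

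Receptors for the matrix leaned to UNC0642 as well, with 12 of 30 called higher there and 1 higher with TP-472 (11 and 3 with trends removed). That is 40.0% and 3.33% of those tested, against 11.8% and 10.1% of all genes. ITGB3, the beta subunit of the vitronectin receptor, had 45.1, 49.1 and 45.6 CPM with UNC0642 and 34.4, 35.1 and 33.2 CPM with TP-472 (0.45 ± 0.066 (SE), adjusted p = 0.000176; 0.46 with trends removed), and untreated cells, at 46.5, 44.4 and 38.5 CPM, reach into the UNC0642 range. ITGA2, the alpha subunit of a collagen receptor, had 49.8, 57.8 and 54.4 CPM with UNC0642 and 42.9, 45.2 and 40.2 CPM with TP-472 (0.34 ± 0.067 (SE), adjusted p = 0.00157; 0.19 with trends removed). DDR2, a tyrosine kinase that binds fibrillar collagen, had 31.2, 45.97 and 45.6 CPM with UNC0642 and 24.5, 21.98 and 21.1 CPM with TP-472 (0.87 ± 0.16 (SE), adjusted p = 0.000989; 0.68 with trends removed), but untreated cells spread over 39.3, 29.8 and 21.8 CPM. SDC4, a heparan sulfate proteoglycan of focal adhesions, was the 1 called higher with TP-472, at 422, 412 and 395 CPM with UNC0642 and 459, 458 and 467 CPM with TP-472 (-0.17 ± 0.036 (SE), adjusted p = 0.0025; -0.11 with trends removed).

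Most replication genes were higher with TP-472, and of the 32 lists this one had the largest share of called members. Of 64 tested, 47 were called higher with TP-472 and 1 higher with UNC0642, and 16 did not pass, with a median log2 difference of -0.21. With trends removed the counts were 43 and 1 (36 of the 47 among them) and the median -0.14. In all 6 fits that leave out a library, 31 of the 47 stayed called. Summed over the list, the 3 UNC0642 libraries held 4870 to 4917 CPM, the 3 TP-472 libraries 5381 to 5417 CPM and the untreated libraries 5036 to 5088 CPM, with no overlap between any pair of groups. In bulk RNA, more cells in S phase and more RNA per cell cannot be told apart.

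RRM2, the regulated subunit of the enzyme that makes deoxyribonucleotides (chr2:10120698-10131419), had 250.1, 249 and 254 CPM with UNC0642 and 311, 303 and 305 CPM with TP-472 and 284, 281 and 289.8 CPM in untreated cells, which lie between. The log2 difference was -0.29 ± 0.031 (SE) (adjusted p = 3.9e-06; -0.28 with trends removed). CDC45, part of the replicative helicase, had 19.8, 19.2 and 18.2 CPM with UNC0642 and 24.2, 24.5 and 26.4 CPM with TP-472 and 20.3, 20.2 and 20.3 CPM in untreated cells, close to UNC0642 (-0.395 ± 0.055 (SE), adjusted p = 0.000106; -0.295 with trends removed). TK1, thymidine kinase of S phase, had 56.9, 54.1 and 56.1 CPM with UNC0642 and 72.01, 72.2 and 71.7 CPM with TP-472 (-0.37 ± 0.054 (SE), adjusted p = 0.000151; -0.23 with trends removed). E2F1, the activating factor of the programme, had 70.1, 67.9 and 69.4 CPM with UNC0642 and 81, 87.9 and 87.3 CPM with TP-472 (-0.31 ± 0.043 (SE), adjusted p = 0.000115; -0.203 with trends removed), and untreated cells held 64.7, 68.1 and 68.4 CPM, near the UNC0642 level. The exception was E2F7, a repressing member of the E2F family, with 262, 277 and 273 CPM with UNC0642 and 225, 217 and 214 CPM with TP-472 (0.31 ± 0.043 (SE), adjusted p = 0.000104; 0.23 with trends removed). All 3 UNC0642 libraries of E2F7 exceed all 3 TP-472 libraries, and untreated cells were at 282, 256 and 249 CPM.

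Part of the promoters of the replication list hold the E2F motif. Promoters are RefSeq windows on GRCh38.p14 of 250 bases before to 50 bases after a gene's start, found for 11007 of the genes tested and for 52 of the 64 replication genes. TTTCCCGC or TTTGGCGC, on either strand, stands in 21 of the 52 (40.4%) and in 3.64% of all 11007; of the matrix promoters 1 of 37 (2.70%) holds it. Of the 21 with the motif 17 were called higher with TP-472 (16 with trends removed), and of the 31 without it 23 were (19 with trends removed). A match is a description of these letters, not of a bound site. The 3 promoters below are those of the called members with a match that had the smallest p; CLSPN and PCNA were named for this after their values were seen. Capitals mark the match, which begins 20, 5 and 59 bases before the start.
E2F1, chr20:33686336-33686635 on the minus strand: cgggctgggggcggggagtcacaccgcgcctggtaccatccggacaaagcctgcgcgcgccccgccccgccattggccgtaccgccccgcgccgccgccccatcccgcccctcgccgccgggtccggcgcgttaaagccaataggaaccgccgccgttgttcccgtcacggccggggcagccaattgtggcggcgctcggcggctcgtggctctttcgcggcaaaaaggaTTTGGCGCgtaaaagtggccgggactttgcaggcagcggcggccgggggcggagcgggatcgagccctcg
CLSPN, chr1:35769929-35770228 on the minus strand: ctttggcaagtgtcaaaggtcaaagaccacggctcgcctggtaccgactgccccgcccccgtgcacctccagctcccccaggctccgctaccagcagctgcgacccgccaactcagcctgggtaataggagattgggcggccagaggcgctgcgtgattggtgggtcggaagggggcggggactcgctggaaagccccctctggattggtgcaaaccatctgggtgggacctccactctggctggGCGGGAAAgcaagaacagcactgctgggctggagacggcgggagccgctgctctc
PCNA, chr20:5126573-5126872 on the minus strand: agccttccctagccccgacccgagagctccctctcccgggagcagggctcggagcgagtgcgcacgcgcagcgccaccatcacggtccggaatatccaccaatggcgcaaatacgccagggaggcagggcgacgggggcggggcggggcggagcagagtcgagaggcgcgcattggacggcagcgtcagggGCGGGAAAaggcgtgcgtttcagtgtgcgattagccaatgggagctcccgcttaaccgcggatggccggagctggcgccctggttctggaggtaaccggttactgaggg

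CLSPN, claspin of the replication checkpoint, had 23.7, 23.3 and 23.5 CPM with UNC0642 and 30.6, 30.6 and 33.8 CPM with TP-472 (-0.43 ± 0.066 (SE), adjusted p = 0.000243; -0.47 with trends removed). PCNA, the sliding clamp of the DNA polymerases, had 147, 136 and 136 CPM with UNC0642 and 165, 166 and 170.3 CPM with TP-472 (-0.26 ± 0.041 (SE), adjusted p = 0.000312; -0.14 with trends removed). For both genes untreated cells lay between the compounds, at 25.95, 26.2 and 27.6 CPM and 149, 152 and 161 CPM. Other genes of chromatin assembly and of the cell cycle stood with them. ASF1B, a histone chaperone, had 44.8, 44.6 and 42.9 CPM with UNC0642 and 55.5, 56.5 and 56.2 CPM with TP-472 (-0.35 ± 0.042 (SE), adjusted p = 2.08e-05), and TCF19, a factor of late G1, had 73.7, 71.9 and 71.5 CPM with UNC0642 and 90.8, 90.7 and 93.6 CPM with TP-472 (-0.34 ± 0.042 (SE), adjusted p = 2.08e-05). CDCA4, an E2F-responsive gene, had 96.6, 93.9 and 96.1 CPM with UNC0642 and 118, 118 and 118 CPM with TP-472 (-0.304 ± 0.037 (SE), adjusted p = 1.98e-05). With trends removed these 3 differences were -0.23, -0.298 and -0.23.

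Mitotic genes leaned the same way by less. Of 51 tested, 20 were called higher with TP-472 and 1 higher with UNC0642 (18 and 0 with trends removed), with a median of -0.094. That is 39.2% and 1.96% of those tested, against 10.1% and 11.8% of all genes. Without UNC0642 replicate 2 the 20 became 11, while over all genes the 1515 higher with TP-472 became 420. UBE2C, the ubiquitin-conjugating enzyme of the anaphase-promoting complex, had 140.5, 132 and 133 CPM with UNC0642 and 171, 181 and 181 CPM with TP-472 (-0.39 ± 0.042 (SE), adjusted p = 4.39e-06; -0.25 with trends removed). MYBL2, a transcription factor of late cell cycle genes, had 101, 95.98 and 95.1 CPM with UNC0642 and 118, 118 and 120.5 CPM with TP-472 (-0.29 ± 0.039 (SE), adjusted p = 7.27e-05; -0.204 with trends removed). ASPM, a spindle pole protein whose longest transcript has 10887 bases, was the 1 higher with UNC0642 (0.29 ± 0.074 (SE), adjusted p = 0.00782). It was not called with trends removed (0.096, adjusted p = 0.0836) or without UNC0642 replicate 2 (adjusted p = 0.0598).

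**Figure D3:**
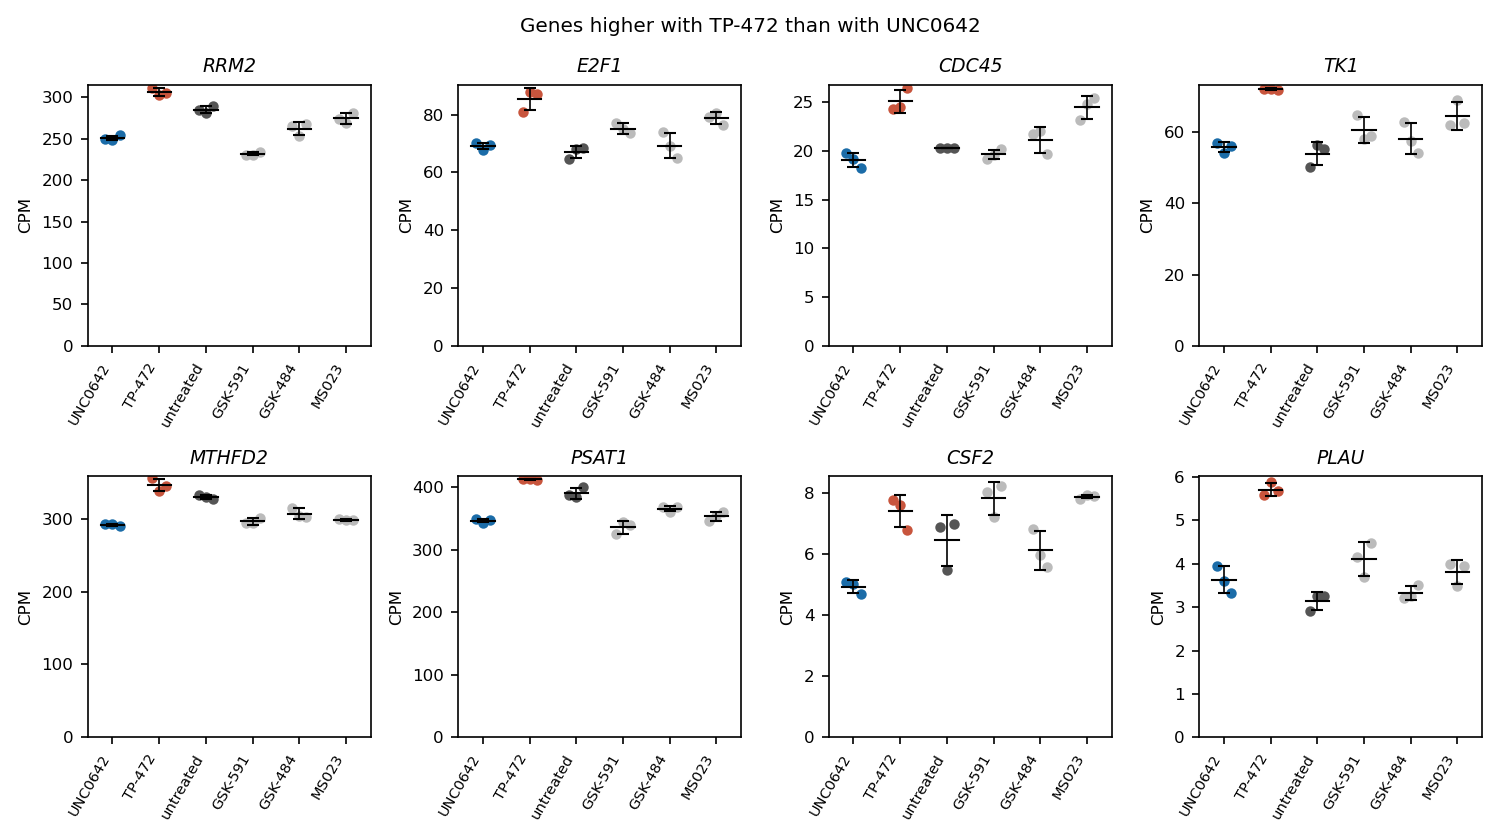
CPM of 8 genes higher with TP-472 in each library (points), with the group mean and SD (bars, n = 3); JQ-1 is not drawn. Untreated cells lie between the compounds in RRM2, MTHFD2 and PSAT1 and near UNC0642 in E2F1, CDC45, TK1 and PLAU.

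Genes of the integrated stress response, which ATF4 drives when amino acids are short or protein folding fails, were called mainly on the TP-472 side. Of 48 tested, 27 were called higher with TP-472 and 1 higher with UNC0642 (23 and 2 with trends removed), with a median of -0.12. That is 56.2% and 2.08% of those tested, against 10.1% and 11.8% of all genes. The 27 became 17 without UNC0642 replicate 2 and 17 without TP-472 replicate 3. Over all genes the 1515 higher with TP-472 became 420 and 505 in these fits. MTHFD2, a mitochondrial one-carbon enzyme, had 292, 292 and 290.1 CPM with UNC0642 and 355, 338 and 345 CPM with TP-472 and 332, 329 and 327 CPM in untreated cells (-0.25 ± 0.029 (SE), adjusted p = 1.51e-05; -0.28 with trends removed). PSAT1, of serine synthesis, had 349, 344 and 347 CPM with UNC0642 and 413, 413 and 412 CPM with TP-472 and 387, 384 and 400.1 CPM in untreated cells (-0.25 ± 0.030 (SE), adjusted p = 1.53e-05; -0.18 with trends removed). In both genes the untreated libraries lie between the compounds. GDF15, a stress cytokine at a low level, was the 1 member higher with UNC0642: 3.19, 1.93 and 1.92 CPM with UNC0642 and 0.8603, 1.09 and 1.03 CPM with TP-472 (1.202 ± 0.21 (SE), adjusted p = 0.000695; 1.36 with trends removed), and its UNC0642 replicate 1 stands above the other two.

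Promoters of this list hold the composite CREB-ATF motif, TGATGNAA on either strand, in 10 of 40 (25%), against 1.84% of all genes tested; in the replication list it is in 0 of 52. Of the 10 with the motif 5 were called higher with TP-472, and of the 30 without it 17 were. The 2 promoters shown are those of called members with a match and the smallest p, named after their values were seen, with the match in capitals 209 and 68 bases before the start. CHAC1 encodes an enzyme that degrades glutathione and ASNS asparagine synthetase.
CHAC1, chr15:40953221-40953520 on the plus strand: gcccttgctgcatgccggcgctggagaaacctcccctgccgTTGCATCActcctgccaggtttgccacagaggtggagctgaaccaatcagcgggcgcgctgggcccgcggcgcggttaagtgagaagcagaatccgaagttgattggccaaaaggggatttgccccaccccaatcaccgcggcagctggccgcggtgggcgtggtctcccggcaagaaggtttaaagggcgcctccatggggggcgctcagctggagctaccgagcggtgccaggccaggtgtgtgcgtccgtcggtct
ASNS, chr7:97872359-97872658 on the minus strand: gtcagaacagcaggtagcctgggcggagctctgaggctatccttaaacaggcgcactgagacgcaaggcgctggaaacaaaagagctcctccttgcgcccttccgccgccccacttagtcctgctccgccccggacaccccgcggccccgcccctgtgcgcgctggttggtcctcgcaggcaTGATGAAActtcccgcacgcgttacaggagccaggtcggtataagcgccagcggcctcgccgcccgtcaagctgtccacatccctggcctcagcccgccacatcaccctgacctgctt
The CHAC1 transcript had 21.6, 19.3 and 21.3 CPM with UNC0642 and 26.5, 28 and 28.1 CPM with TP-472 (-0.42 ± 0.056 (SE), adjusted p = 7.39e-05; -0.28 with trends removed), and ASNS had 202, 189 and 192 CPM with UNC0642 and 239, 227 and 237 CPM with TP-472 (-0.27 ± 0.038 (SE), adjusted p = 0.000101; -0.198 with trends removed). Untreated cells were at 19.4, 19.4 and 18.1 CPM for CHAC1 and at 191, 192 and 206 CPM for ASNS, near the UNC0642 level in both.

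Inflammatory genes were called on both sides. Of 54 tested (67 listed), 10 were called higher with TP-472 and 6 higher with UNC0642, and 38 did not pass, with a median of -0.078; the shares are 18.5% against 10.1% of all genes on the TP-472 side and 11.1% against 11.8% on the UNC0642 side. With trends removed the counts turned to 3 and 6 and the median was 0.0043. The 10 became 3 without UNC0642 replicate 2, 3 without TP-472 replicate 3 and 5 without UNC0642 replicate 3, and the 6 became 1, 2 and 3 without the same libraries and 3 without TP-472 replicate 2. RELB, the subunit of alternative NF-kB signalling, was higher with TP-472 at 38.3, 36.8 and 38.6 CPM with UNC0642 and 45.2, 47.2 and 45.9 CPM with TP-472 (-0.29 ± 0.046 (SE), adjusted p = 0.000373; -0.17 with trends removed), with untreated cells at 34.5, 37.1 and 36.1 CPM, near UNC0642. REL, another subunit, was higher with UNC0642 at 11.1, 15.3 and 16.3 CPM with UNC0642 and 8.89, 7.38 and 7.84 CPM with TP-472 (0.84 ± 0.15 (SE), adjusted p = 0.000896; 0.63 with trends removed), but untreated cells spread over 15, 11.5 and 9.43 CPM.

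Among cytokines, CSF2 (GM-CSF) had 5.099, 5.01 and 4.696 CPM with UNC0642 and 7.795, 7.63 and 6.81 CPM with TP-472 (-0.59 ± 0.10 (SE), adjusted p = 0.000422; -0.45 with trends removed), and untreated cells held 6.89, 5.49 and 7.01 CPM. CXCL8, the neutrophil chemokine and the most abundant of these, had 477, 458 and 466 CPM with UNC0642 and 525, 520.1 and 523 CPM with TP-472 and 569, 549.8 and 609.9 CPM in untreated cells, above both compounds (-0.16 ± 0.039 (SE), adjusted p = 0.00583); with trends removed it was not called (-0.070, adjusted p = 0.0805). CXCL1, with fractional counts in most libraries, differed by -0.199 ± 0.051 (SE) (adjusted p = 0.00888) and was not called with trends removed (adjusted p = 0.155). SOD2, the mitochondrial superoxide dismutase that NF-kB induces, was called higher with UNC0642 (0.19 ± 0.056 (SE), adjusted p = 0.0172), but with trends removed its sign turned (-0.060, adjusted p = 0.578). The length used for SOD2 was 14266 bases, its longest annotated transcript, which need not be the form expressed here. C3, the central complement protein, had 71.2, 73.1 and 74.04 CPM with UNC0642 and 62.9, 67.3 and 64.1 CPM with TP-472 (0.17 ± 0.049 (SE), adjusted p = 0.018; 0.14 with trends removed, adjusted p = 0.0162), and OSMR, a receptor for oncostatin M, differed by 0.198 ± 0.052 (SE) (adjusted p = 0.0098; 0.13 with trends removed). Without UNC0642 replicate 2 none of C3, OSMR, SOD2 and CXCL1 was called, without TP-472 replicate 3 none of them but OSMR, without TP-472 replicate 2 not SOD2, and without UNC0642 replicate 3 or TP-472 replicate 1 not C3 (adjusted p up to 0.0624, 0.0596, 0.0789 and 0.0828).

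Partners of the drug targets were called on both sides, in shares to be read against the 11.8% and 10.1% of all genes. In the list of H3K9 methylation genes, 6 of 29 were called higher with UNC0642 and 5 higher with TP-472 (1 and 6 with trends removed). CDYL2, a chromodomain protein that binds methylated H3K9, had 5.95, 8.57 and 8.005 CPM with UNC0642 and 3.598, 4.12 and 3.46 CPM with TP-472 (1.02 ± 0.21 (SE), adjusted p = 0.00237; 0.86 with trends removed), with untreated cells over 6.33, 5.07 and 3.34 CPM. MORC2, an ATPase of the HUSH silencing pathway, differed by -0.12 ± 0.041 (SE) (adjusted p = 0.0364; -0.17 and 0.00218 with trends removed), and MPHOSPH8, of the same pathway, by -0.19 ± 0.057 (SE) (adjusted p = 0.0227). CBX5, ATF7IP and KDM3A, with long transcripts, were called higher with UNC0642 (0.301, 0.25 and 0.18) and not with trends removed (adjusted p = 0.142, 0.0985 and 0.977). Of 28 SWI/SNF genes, 3 were called higher with UNC0642 and 6 higher with TP-472 (1 and 4 with trends removed). SMARCB1, a core subunit, had 80.9, 81.2 and 79.8 CPM with UNC0642 and 87.3, 89.3 and 89.03 CPM with TP-472 (-0.14 ± 0.038 (SE), adjusted p = 0.015; -0.16 with trends removed), and PBRM1, of the polybromo form, had 63.9, 70.3 and 68.6 CPM with UNC0642 and 58.7, 56.5 and 54.02 CPM with TP-472 (0.26 ± 0.056 (SE), adjusted p = 0.00242; 0.13 with trends removed). Leaving out single libraries lowered these counts: without UNC0642 replicate 2 or without TP-472 replicate 2, 0 of the 5 and 0 of the 6 were counted, 1 and 1 without UNC0642 replicate 3, and 1 and 0 without TP-472 replicate 3. Without TP-472 replicate 1 the 5 became 3 and without UNC0642 replicate 1 they became 2. The 3 SWI/SNF genes on the UNC0642 side became 1 without any single TP-472 replicate or UNC0642 replicate 2.

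The melanocyte lineage list held 0 called genes of 13 tested in either direction, by edgeR with and without trends removed and by DESeq2; 2 had an unadjusted p under 0.05 in edgeR. SOX10, the lineage factor of neural crest cells, had 412 ± 6.18 CPM with UNC0642 and 414 ± 7.41 CPM with TP-472 (SD, n = 3), and MITF had 12.6 ± 0.186 and 11.9 ± 0.224 CPM. Pigment genes were close to 0 in all 6 libraries, such as PMEL at a mean of 0.154 ± 0.0481 and 0.106 ± 0.0248 CPM. Of genes of the invasive, dedifferentiated melanoma state, 11 of 27 were called higher with UNC0642 and 3 higher with TP-472 (7 and 1 with trends removed). That is 40.7% and 11.1% of those tested, against 11.8% and 10.1% of all genes. The 11 became 4 without UNC0642 replicate 2 or TP-472 replicate 3 and 6 without UNC0642 replicate 3 or TP-472 replicate 2. The 3 became 1 without UNC0642 replicate 2 or TP-472 replicate 2 or 3. FOSL2, an AP-1 subunit of that list, had 134, 161 and 159 CPM with UNC0642 and 108, 108 and 106 CPM with TP-472 (0.497 ± 0.077 (SE), adjusted p = 0.000263; 0.398 with trends removed), while FOSL1, another AP-1 subunit, had 484, 469 and 481 CPM with UNC0642 and 520.5, 552 and 535 CPM with TP-472 (-0.16 ± 0.038 (SE), adjusted p = 0.00483; -0.029 and 0.716 with trends removed). TGF-beta and YAP targets, which overlap the matrix list, had 10 of 27 called higher with UNC0642 and 1 higher with TP-472 (9 and 0 with trends removed, and 0 on the TP-472 side without UNC0642 replicate 2). Their shares, 37.0% and 3.7%, stand against the same 11.8% and 10.1%. TGFB2, the ligand, had 23.4, 28.5 and 27.2 CPM with UNC0642 and 18.5, 17.8 and 19.04 CPM with TP-472 (0.53 ± 0.10 (SE), adjusted p = 0.00105; 0.48 with trends removed) and fractional counts in most libraries.

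**Figure D4:**
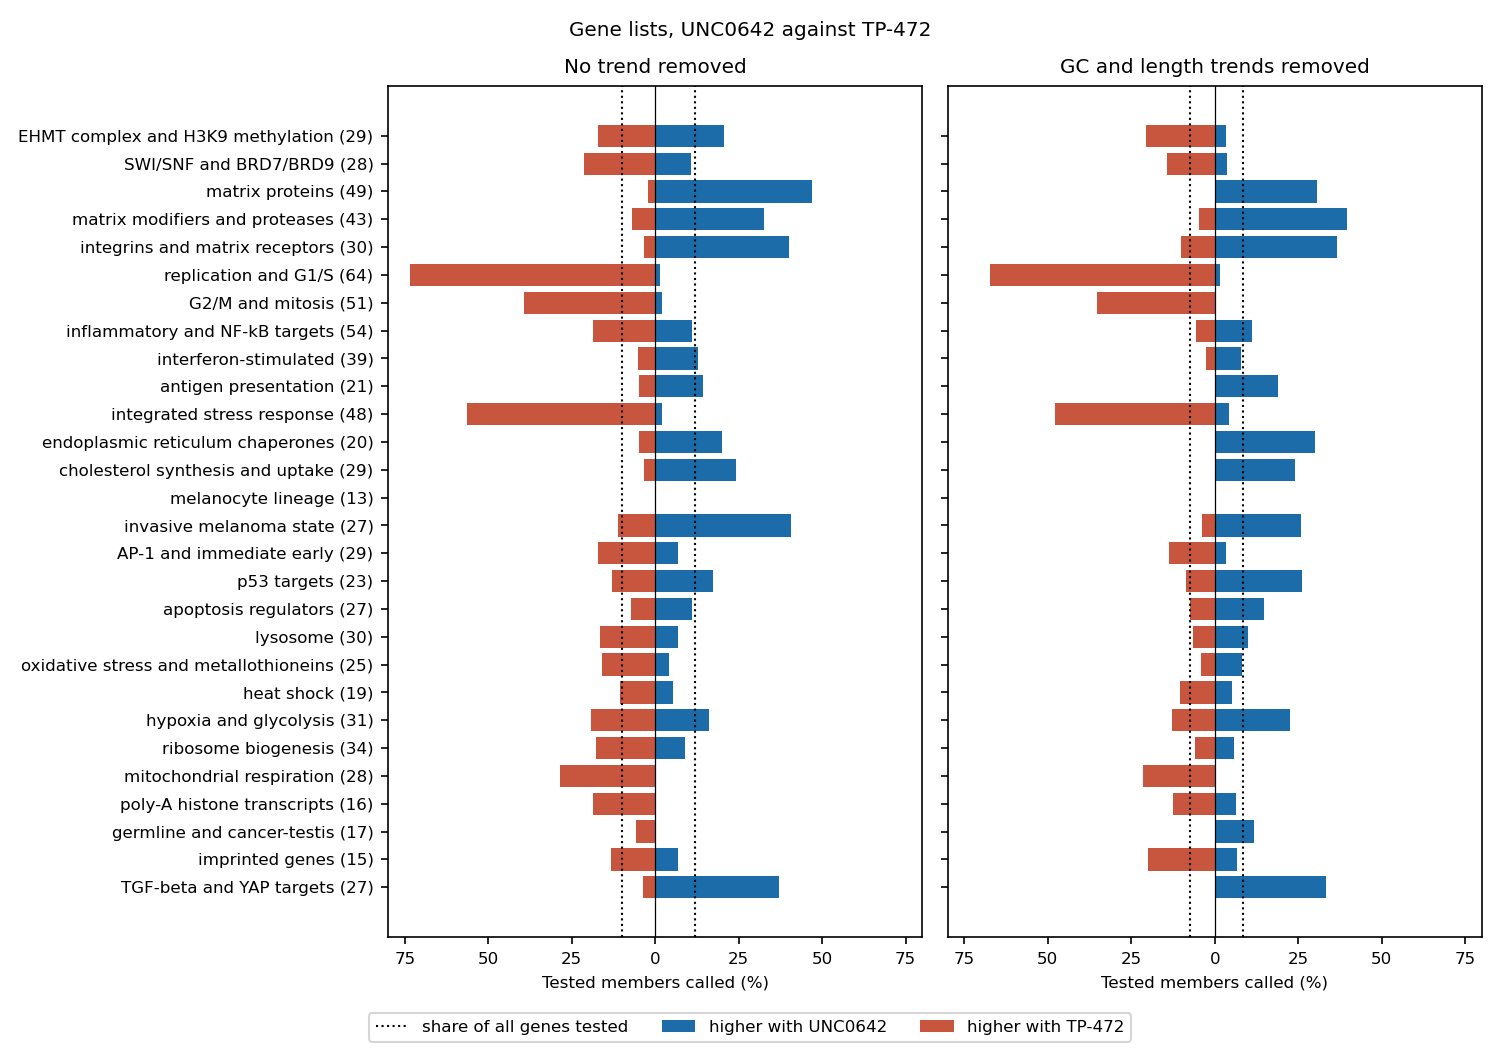
Share of the tested members of each list (their number in parentheses) called higher with UNC0642 (right, blue) or with TP-472 (left, red), with no trend removed and with the GC and length trends of each library removed. Dotted lines give the shares over all genes tested (11.8% and 10.1%; 8.43% and 7.49% with trends removed); replication and stress response genes extend far left and matrix genes right in both panels.

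Untreated cells and the other compounds place these differences. Against untreated cells 2448 genes were called with UNC0642 (16.3%) and 4788 with TP-472 (31.8%). Both use the same 3 untreated libraries, whose GC slopes (-0.18, -0.096 and -0.11 log2 units per 10 points) lie below those of all 18 treated libraries. With trends removed 601 and 1884 of the 15062 genes tested were called. Without untreated replicate 3, UNC0642 replicate 2 or UNC0642 replicate 3 the 2448 became 1456, 1300 and 1109, and without untreated replicate 1 the 4788 became 2789. Against the mean of the 3 other compounds 3807 were called with UNC0642 (25.3%) and 1108 with TP-472 (7.36%). With trends removed 2815 and 1714 were called. The list counts below, with trends removed, stand against these totals, which join both directions. The 3807 became 1217 without UNC0642 replicate 2 and 1955 without replicate 3, and the 1108 became 661, 552 and 489 without TP-472 replicates 1, 2 and 3. For replication genes the median log2 difference from untreated cells, trends removed, was -0.051 with UNC0642 (0 called higher and 8 lower of 64) and 0.11 with TP-472 (28 higher, 1 lower). From the 3 other compounds it was -0.0073 with UNC0642 (2 higher, 4 lower) and 0.16 with TP-472 (48 higher, 0 lower).

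Matrix proteins had the opposite order in their medians, with UNC0642 above and TP-472 below untreated cells. The members called against untreated cells with UNC0642 lay on both sides, so a rise with UNC0642 is not shown for the list. Of all 15062 genes tested, 601 were called there with trends removed, and 1884 with TP-472, both directions together. Over all genes tested the medians from untreated cells, trends removed, were 0.0052 with UNC0642 and -0.00069 with TP-472. For matrix proteins the median from untreated cells, trends removed, was 0.049 with UNC0642 (2 of 49 higher, 1 lower) and -0.071 with TP-472 (0 higher, 12 lower). From the 3 other compounds it was 0.026 with UNC0642 (10 higher, 8 lower) and -0.082 with TP-472 (0 higher, 16 lower). For the stress response list the medians from untreated cells were -0.0064 with UNC0642 and 0.090 with TP-472 (23 of 48 higher, 3 lower). Single genes placed differently. Unlike the medians above, their values are given with no trend removed only. That removal lowered the calls against untreated cells from 2448 to 601 with UNC0642 and from 4788 to 1884 with TP-472. EHF stood at 0.48 (adjusted p = 0.00023) with UNC0642 and -0.64 (adjusted p = 6.28e-06) with TP-472 against untreated cells, and IGFN1 at 0.91 (adjusted p = 5.92e-06) and -0.83 (adjusted p = 1.74e-05). With no trend removed, these genes were thus called on both sides of untreated cells. SFRP1 stood at -0.021 (adjusted p = 0.634) with UNC0642 and -0.26 (adjusted p = 2.54e-06) with TP-472. CTGF was below untreated cells with both compounds, at -0.19 (adjusted p = 0.000722) and -0.39 (adjusted p = 1.28e-07). TCF19 stood at 0.0024 (adjusted p = 0.977) with UNC0642 and 0.34 (adjusted p = 1.66e-05) with TP-472, whereas UBE2C stood at -0.304 (adjusted p = 0.00023) and 0.089 (adjusted p = 0.116).

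**Figure D5:**
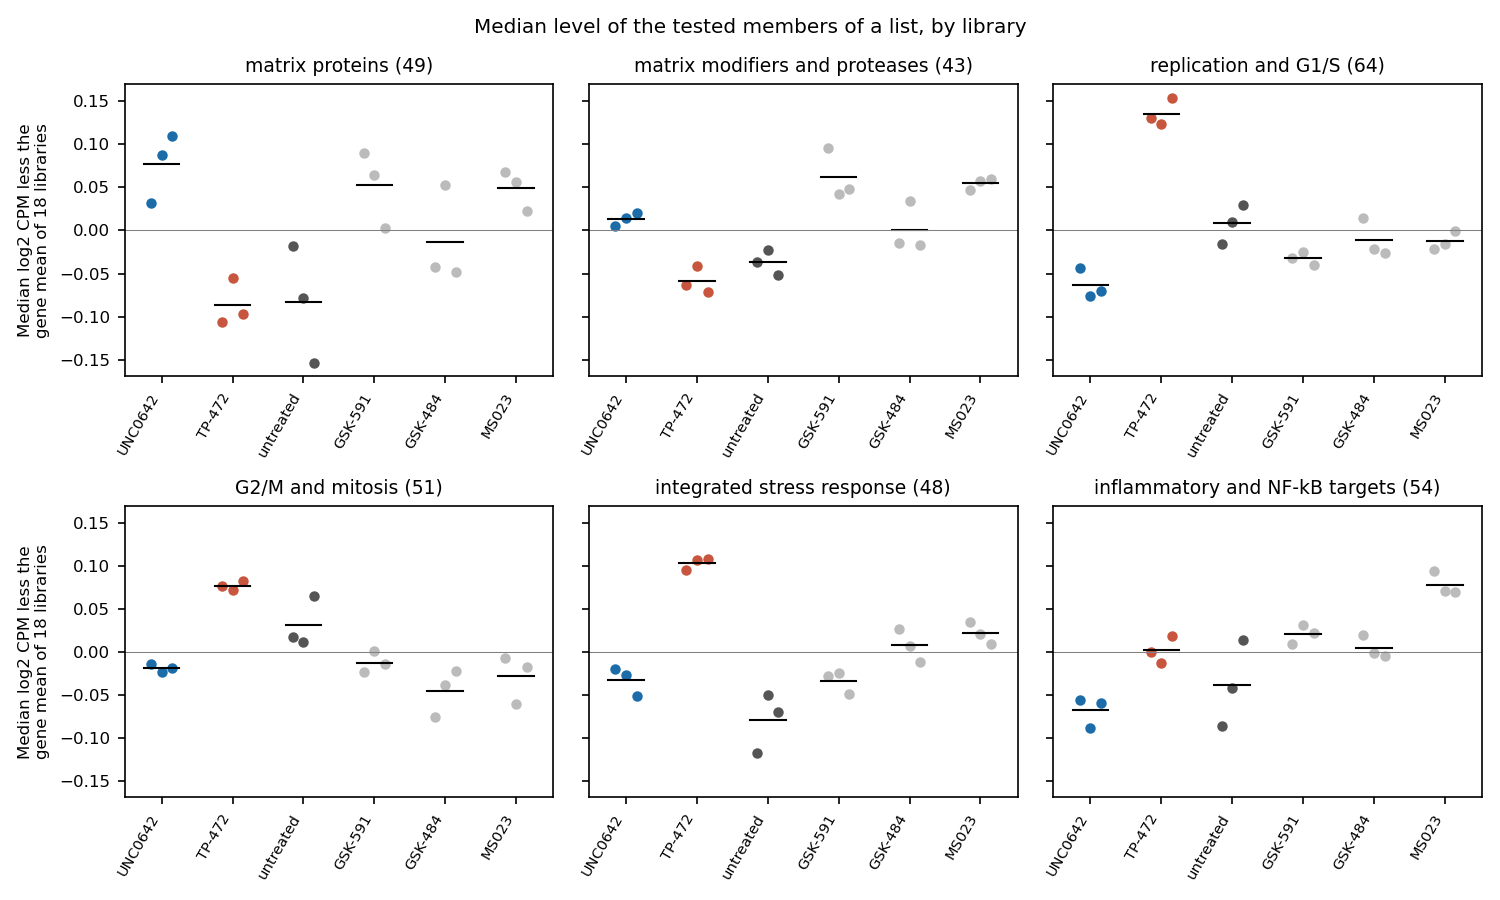
Median over the tested members of 6 lists of log2 CPM less the gene's mean over 18 libraries (all but JQ-1), by library (points) with group means (bars); no trend is removed. The 3 TP-472 libraries are the highest of all 18 for replication genes (0.12 to 0.15), the mitotic list and the stress response list.

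Summed expected counts were 33496035 to 78776788 in the UNC0642 libraries and 36983672 to 47025796 in the TP-472 libraries, and ribosomal RNA genes took 8.097 to 10.6% and 6.004 to 7.27% of them. The common coefficient of variation between replicates was 5.09%. Markers of fibroblasts, keratinocytes, immune cells and endothelial cells, 38 genes in 4 lists, held few called genes: 1 of the 16 tested was called higher with UNC0642 (PDGFRB, 0.33 ± 0.11 (SE), adjusted p = 0.0293; 0.0576 with trends removed, and not called without replicate 2 or 3 of either group). Their summed levels with UNC0642 and with TP-472 were 27.8 to 33.0 and 28.6 to 32.3 for keratinocytes, 144 to 155 and 153 to 165 CPM for immune cells, and 58.99 to 62.6 and 59.96 to 63.4 for endothelial cells. Most of these sums came from KRT10, CD68 and ENG, which melanoma lines also express, and DCN, KRT1 and KRT6A had 0 counts in all 6 libraries.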

How the data were processed

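RNA of SK-MEL-147 cells was measured in 21 libraries of 7 groups. The tools of the authors, going by names in the submitters' processing notes, were RSEM 1.2.15 and Bowtie2 2.1.0; hg38 is the build named there, and the annotation is not given in the sources used. The deposited values are expected counts per gene, whose reads RSEM splits between similar transcripts, for 26475 genes. After rounding, filterByExpr kept genes (at least 10 counts, and 15 in total) and TMM set the scale. One edgeR 4.0.16 quasi-likelihood model, with a term for the group alone, took in the 21 libraries (two-sided, Benjamini-Hochberg adjusted p under 0.05, prior count 0.125), and the SE is the log2 difference over the square root of F. The added removal of trends took a loess (span 0.3, 4 iterations) of each library's log2 CPM (prior count 2) on GC content and longest GENCODE 29 transcript length as an offset, known for 14108 genes (93.7% of those tested). The fit was tested on simulated data.

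The groups, comparisons and 32 gene lists (945 of 946 symbols found, 38 under an older name, 856 tested) were chosen with earlier results of these data known. Genes were named by rule: the 8 largest called differences per direction with at least 3 CPM and no overlap of groups, the 8 smallest p per direction with at least 30 CPM, the 4 smallest p per direction in the matrix, integrin, replication, inflammatory, H3K9 and SWI/SNF lists, 2 in other lists, and the targets. The rule gave 138 symbols, of which the text gives part. Genes named outside it were CLSPN, PCNA, CHAC1 and ASNS, the lineage genes SOX10, MITF and PMEL, and the markers DCN, COL1A2, COL3A1, KRT10, KRT1, KRT6A, CD68 and ENG. Alternatives were DESeq2 1.42.0, RLE and total-count scaling, no filter, a replicate block, the compared groups alone, no JQ-1 libraries, thinning to the smallest library, a 1.2-fold threshold, no ribosomal RNA genes, removal of GC, length or both trends, and leaving out each replicate. Chi-square over degrees of freedom between replicates was 4.85 to 15.7, so none were duplicates. Computations used R 4.3.3 and Python 3.11.15.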

Additional observations from a re-analysis of the deposited data

How the results depend on the processing

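Between UNC0642 and TP-472 the 3290 calls (1775 higher with UNC0642, 1515 higher with TP-472) became 1995 (1084 and 911) with the length trend removed and 58 (55 and 3) with the test against a 1.2-fold threshold; leaving out single libraries, with and without the trends, gave 1196 to 3255 (648 to 1947 and 420 to 1308). DESeq2, RLE and total-count scaling, no filter, the GC trend, the groups compared alone, thinning and the libraries without JQ-1 or ribosomal RNA moved the total by less than 1.5 times. Against untreated cells, UNC0642 gave 486 with the GC trend removed, 406 with that and a replicate block, 601 with both trends removed, 547 with both and a block, 1538 with the groups compared alone and 12 at the threshold, and 1109 to 2431 without single libraries; TP-472 gave 1820, 1681, 1884 and 1790 in the first 4 of these, 21 at the threshold and 2789 to 4927. Against the 3 other compounds, UNC0642 gave 72 at the threshold and 1217 to 4017 without single libraries, and TP-472 gave 1714 with both trends removed, 14 at the threshold and 489 to 1405. Matrix proteins higher with UNC0642 (23) became 13 with the length trend removed, 15 with both and 15 with both and a block, 1 at the threshold and 13 to 23 without single libraries; the 1 higher with TP-472 became 0 with RLE scaling, no filter, the length trend or both trends removed (with or without a block), no JQ-1 libraries and the threshold, and was 0 to 1 without single libraries. Replication genes higher with TP-472 (47) became 0 at the threshold and 31 to 45 without single libraries, and the 1 higher with UNC0642 became 0 at the threshold. Inflammatory genes higher with TP-472 (10) became 4 with the length trend removed, 3 with both, 3 with both and a block, 0 at the threshold and 2 to 9 without single libraries; the 6 higher with UNC0642 became 1 at the threshold and 1 to 6. The threshold asks for a larger difference by its construction; the cause of the other shifts was not tested.

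Of the log2 differences of named genes, signs turned for EHMT1 (-0.00034 with total-count scaling, -0.0031 with thinning, -0.12 with the length trend, both trends, or both and a block; -0.15 to 0.077 without single libraries), EHMT2 (0.048 and 0.047 with the GC trend removed with and without a block, 0.0070 and 0.0071 with both trends; -0.050 to 0.030), BRD7 (-0.10 to 0.010), SOD2 (-0.085 with the length trend, -0.060 with both, -0.059 with both and a block; -0.12 to 0.25), ARID1A (-0.00091 with the length trend; -0.024 to 0.22), MAGEA1 (0.0023 with the length trend; -0.14 to 0.011), IER3 (-0.21 to 0.0057) and KDM3A (-0.0028 to 0.21). The replicate block, tried because the labels number replicates in each group, gave 3131 calls between UNC0642 and TP-472 and 47 replication genes; same-numbered libraries did not deviate together (correlations -0.046, -0.038 and -0.0028), so the numbers were not taken to pair them.

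Depth (33496035 to 78776788 counts) bears on the calls: thinning to the smallest library gave 2443, and 22 named genes lost theirs; genes under 3 CPM such as GDF15 rest on few counts. Doses and times are unknown, so the compounds cannot be ranked by strength.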

Other observations

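The counts of called genes here stand against 11.8% of all genes tested higher with UNC0642 and 10.1% higher with TP-472. Without a library, they stand against the counts of all genes called in that fit, given above. Genes of sterol and fatty acid synthesis, a list the results above do not describe, had 7 of 29 members called higher with UNC0642 and 1 higher with TP-472 (7 and 0 with trends removed); the 7 became 4 without TP-472 replicate 2. SCD, the stearoyl-CoA desaturase, had 387, 414 and 407 CPM with UNC0642 and 327, 329.9 and 323 CPM with TP-472 (0.303 ± 0.037 (SE), adjusted p = 2.61e-05; 0.24 with trends removed), and untreated cells, at 417, 403 and 387 CPM, overlap the UNC0642 range. FDPS, with fractional counts, was the 1 on the TP-472 side (-0.17) and was not called with trends removed (adjusted p = 0.228) or without replicate 2 or 3 of either group. Endoplasmic reticulum chaperones and quality control genes had 4 of 20 called higher with UNC0642 and 1 with TP-472 (6 and 0 with trends removed). The 4 became 2 without UNC0642 replicate 2, and the 1 became 0 without TP-472 replicate 3. CANX, the lectin chaperone calnexin, had 556, 575 and 570.1 CPM with UNC0642 and 523, 493 and 485 CPM with TP-472 (0.18 ± 0.037 (SE), adjusted p = 0.00192; 0.16 with trends removed), and SEL1L, of the degradation complex, had 153, 167 and 156 CPM with UNC0642 and 132, 132 and 124 CPM with TP-472 (0.29 ± 0.053 (SE), adjusted p = 0.000897; 0.15 with trends removed). Untreated cells lay above both compounds for CANX, at 618, 582 and 579 CPM, and held 174, 153 and 151 CPM of SEL1L.

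Nuclear genes of mitochondrial respiration had 8 of 28 called higher with TP-472 and 0 with UNC0642 (6 and 0 with trends removed), but the 8 became 0 without UNC0642 replicate 2, 0 without TP-472 replicate 3, 1 without UNC0642 replicate 3 and 4 without TP-472 replicate 2. Among p53 targets, 4 of 23 were higher with UNC0642 and 3 with TP-472 (6 and 2 with trends removed). The 3 became 0 without replicate 2 or 3 of either group and 1 without UNC0642 replicate 1. TP53INP1, a stress-induced nuclear protein, had 51.3, 55.6 and 52.6 CPM with UNC0642 and 42.8, 39.1 and 37.05 CPM with TP-472 (0.43 ± 0.057 (SE), adjusted p = 7.27e-05; 0.36 with trends removed). Interferon-stimulated genes had 5 of 39 called higher with UNC0642 and 2 with TP-472 (3 and 1 with trends removed). The 5 became 2 without UNC0642 replicate 2 and 3 without TP-472 replicate 3, and the 2 became 0 without TP-472 replicate 1 or 3 or UNC0642 replicate 2 or 3 and 1 without TP-472 replicate 2. Antigen presentation genes had 3 of 21 higher with UNC0642 and 1 with TP-472 (4 and 0 with trends removed). The 3 became 1 without UNC0642 replicate 2 or 3, and the 1 became 0 without replicate 2 or 3 of either group and 2 without replicate 1 of either. Immediate early genes had 2 of 29 higher with UNC0642 and 5 with TP-472 (1 and 4); KLF4, of that list, had 42.2, 41.97 and 42.95 CPM with UNC0642 and 50.6, 53.1 and 50.99 CPM with TP-472 (-0.28 ± 0.045 (SE), adjusted p = 0.000303; -0.21 with trends removed). The 5 became 1 without UNC0642 replicate 2 or TP-472 replicate 3 and 2 without TP-472 replicate 2, and the 2 became 1 without UNC0642 replicate 2 or TP-472 replicate 3.

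In the other lists the counts higher with UNC0642 and with TP-472 were 5 and 6 of 31 for hypoxia and glycolysis, 3 and 6 of 34 for ribosome biogenesis, 2 and 5 of 30 for lysosomal genes, 1 and 4 of 25 for oxidative stress genes, 1 and 2 of 19 for heat shock genes, 3 and 2 of 27 for apoptosis regulators, 0 and 3 of 16 for polyadenylated histone transcripts, 0 and 1 of 17 for germline genes and 1 and 2 of 15 for imprinted genes. Without replicate 2 or 3 of either group, the counts higher with TP-472 became 1 for hypoxia and glycolysis, 1 to 2 for ribosome biogenesis and for lysosomal genes, 0 to 1 for oxidative stress genes, 0 to 2 for heat shock genes, 1 to 2 for apoptosis regulators, 1 for histone transcripts and 0 for germline and imprinted genes. The 5 for hypoxia and glycolysis became 3 without each of the same libraries. Histone transcripts also became 1 without TP-472 replicate 1, imprinted genes 0 without UNC0642 replicate 1, and on the UNC0642 side lysosomal genes 1 without TP-472 replicate 2 and heat shock genes 0 without UNC0642 replicate 2. Silenced germline and imprinted genes are textbook targets of H3K9 methylation, but a part of that mark in these counts was not tested. NNAT, an imprinted gene, was the 1 of its list higher with UNC0642, at 0.469, 0.4002 and 0.555 CPM with UNC0642 and 0.209, 0.186 and 0.264 CPM with TP-472 (1.101 ± 0.33 (SE), adjusted p = 0.0198; 1.25 with trends removed). Untreated cells, at 0.371, 0.439 and 0.424 CPM, overlap the UNC0642 range. The NNAT call ended without TP-472 replicate 1 or 2 or UNC0642 replicate 3 (adjusted p up to 0.0884).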
